A study of Mus musculus with 36 samples.

Results

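Nfatc1, the transcription factor that drives osteoclast formation, was followed with 8 other activators of that program: its relatives Nfatc2 and Nfatc3, the basic helix-loop-helix factors Mitf, Tfeb and Tfe3, the growth regulator Myc, and the mitochondrial regulators Ppargc1b and Esrra. The genes were taken by symbol, which gave 9 of the 38942 genes in the expression table, and all 9 passed the filter on low values. RNA was sequenced from mouse bone marrow derived cells sorted by the surface protein Ly6C into high (Ly6Chi), intermediate (Ly6Cint) and negative (Ly6Cneg) fractions. The mice were wild type (WT) or carried the label cKO, for conditional knockout, of Irf8, an interferon regulatory factor needed for monocytes and dendritic cells that restrains osteoclast formation. Cells were taken at day 0 in MCSF (labelled BMM, bone marrow derived macrophages) or at day 4 in 20 ng/ml MCSF with 40 ng/ml RANKL (labelled OC, osteoclasts). No day 4 culture lacked RANKL, so RANKL and time in culture cannot be told apart. Genotype, stage and subset gave 12 groups. WT Ly6Cneg cells had 2 libraries at each stage and the other 10 groups had 3, 34 in all. Every group received MCSF, and both sexes were used. The Cre driver of the knockout, the age of the mice and whether animals were pooled are not stated in the labels.

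RANKL, the ligand that starts osteoclast formation, and receptors that signal through immunoreceptor adaptors raise calcium in the precursor cell. Calcium activates the phosphatase calcineurin, which removes phosphates from NFAT proteins and lets them enter the nucleus, where NFATc1 binds its own promoter and amplifies itself. NFATc1 acts with MITF on the genes of the acid-secreting, matrix-degrading osteoclast, such as Ctsk and Acp5. MITF, TFEB and TFE3 also switch on genes of the lysosome. MYC raises ribosome and nucleotide synthesis, and PGC-1beta (Ppargc1b) with its nuclear receptor partner ERRalpha (Esrra) raises the number and the enzymes of mitochondria, which osteoclasts hold in large numbers.

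The values were normalised by the authors and lie on a log2 scale, and a difference is the mean of the first group minus the mean of the second on that scale. Differences were tested with limma over all 38873 genes that passed the filter, and a gene was called at a Benjamini-Hochberg adjusted p under 0.05. The steps between low values allowed whole reads to be recovered, 19900000 to 53400000 per library, with a 2.47-fold range in relative depth. The 9 genes had between 84 and 27392 reads in a library. The scale is compressed for low genes: 1 unit of value corresponded to 1.59 units of log2 reads at a value of 8 and to 1.09 at 11, so fold changes in reads at a common depth are given beside the differences. Nothing in the labels ties replicates to separate mice or cultures, so a p-value covers only the spread between libraries, part or all of which may be technical. An exact permutation test of 3 against 3 libraries cannot go below 0.1, or of 3 against 2 below 0.2, so single values were not tested that way.

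Several label checks bear on what follows. Irf8 was higher, not lower, in the libraries labelled cKO in all 6 comparisons, by 0.68 to 1.27 at day 0 and by 1.08 to 1.88 at day 4. A count over the whole gene does not show whether part of it was deleted, and the groups are therefore called cKO-labelled. Ly6c2, which encodes part of the sorted surface protein, averaged 9.89 in WT Ly6Chi, 13.54 in WT Ly6Cint and 12.26 in WT Ly6Cneg libraries at day 0, against the order of the subset labels. The day 0 cKO-labelled means were 13.29, 14.46 and 11.67. The subset names are therefore used as labels only. Xist group means were 14.01 to 15.15 in WT and 12.24 to 13.66 in cKO-labelled groups, and those of the Y-linked Ddx3y were 5.23 to 6.12 and 10.53 to 10.77, so the mix of sexes and the genotype cannot be told apart, which touches the X-linked Tfe3 most directly. In these bulk libraries fewer cells of a type and less RNA per cell cannot be told apart either.

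Marker genes of cell types were summed per library. Osteoclast markers, with all 10 listed genes measured and none at 0 reads throughout a group, lay between 13.48 and 16 at day 0. At day 4 they lay between 20.35 and 20.39 in WT Ly6Chi, 19.77 and 19.88 in WT Ly6Cint, and 16.81 and 16.95 in WT Ly6Cneg cultures. The cKO-labelled cultures held 20.09 to 20.22, 20.43 to 20.48 and 19.32 to 19.59 in the same order. Neutrophil markers, 12 of 12 measured, were summed at 16.60 to 16.94, 19.20 to 19.34 and 16.02 to 16.23 in WT day 0 cells and at 19.77 to 20.70, 20.57 to 20.74 and 15.70 to 16.80 in cKO-labelled ones. Macrophage markers, 9 of 9 measured, were summed at 18.58 to 18.79 in WT Ly6Chi and Ly6Cint cells at day 0 and at 16.04 to 16.74 in the cKO-labelled ones. In Ly6Cneg cells at day 0 the macrophage sums were 16.97 to 17.13 in WT and 16.43 to 16.58 in cKO-labelled cells. No macrophage or neutrophil marker was at 0 reads throughout a group. At day 4 the neutrophil sums lay between 11.65 and 12.98 in the WT cultures of all subsets. In cKO-labelled cultures they were 11.98 to 12.68 in Ly6Chi, 15.04 to 15.4 in Ly6Cint and 15.05 to 15.47 in Ly6Cneg. Dendritic markers, 8 of 8 measured, were summed at 10.92 to 11.11, 11.97 to 12.11 and 13.63 to 13.66 in WT day 0 cells. Mast cell, basophil and eosinophil markers, 9 of 10 measured, stood at 8.30 to 9.01, 10.27 to 10.28 and 12.30 to 12.56 there. In cKO-labelled Ly6Cneg cells at day 0 they stood at 9.78 to 9.97. Genes with reads numbered 26716 to 35171 per library at day 0 and 23053 to 32329 at day 4. Of 910 olfactory receptor genes, which these cells are not known to use, the group means with reads were 344.7 to 753.3 at day 0, 258.3, 183 and 609 in WT Ly6Chi, Ly6Cint and Ly6Cneg cultures, and 110.3, 131.7 and 498 in the cKO-labelled ones. The part of these differences between groups in the results was not tested.

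Between day 0 and day 4 most of the 9 genes changed in Ly6Chi and Ly6Cint cells and in cKO-labelled Ly6Cneg cells. In WT cells 7, 7 and 4 of them were called in Ly6Chi, Ly6Cint and Ly6Cneg cells, where 34.1%, 28.4% and 12.2% of all genes tested were called. In cKO-labelled cells the counts were 9, 7 and 8, beside 41.8%, 48.7% and 42.6% of all genes. Between genotypes at day 0, 7, 7 and 5 of the 9 were called (29.7%, 39.7% and 23.1% of all genes), and 17 of these 19 calls were lower in the cKO-labelled cells, a direction that 15.3%, 14.7% and 9.42% of all genes took. At day 4 the counts were 2, 4 and 8 (7.86%, 14.1% and 17.1% of all genes), and 12 of these 14 calls were higher in the cKO-labelled cells, as were 4.25%, 8.18% and 9.53% of all genes. The change from day 0 to day 4 differed between genotypes for 7, 8 and 8 of the 9 genes (23.8%, 26% and 17.3% of all genes). The genotype difference varied with the subset, by F tests, for 6 of the 9 at day 0 and 5 at day 4 (20.8% and 13.4% of all genes). Between subsets at day 0, taken as Ly6Cint against Ly6Chi, Ly6Cneg against Ly6Chi and Ly6Cneg against Ly6Cint, 2, 7 and 5 of the 9 were called in WT (15.6%, 20.6% and 23% of all genes) and 1, 1 and 4 in cKO-labelled cells (6.83%, 27% and 27.5%). The genes were chosen with results of these data known, so these shares describe the 9 genes and test nothing about them as a set.

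**Figure D1:**
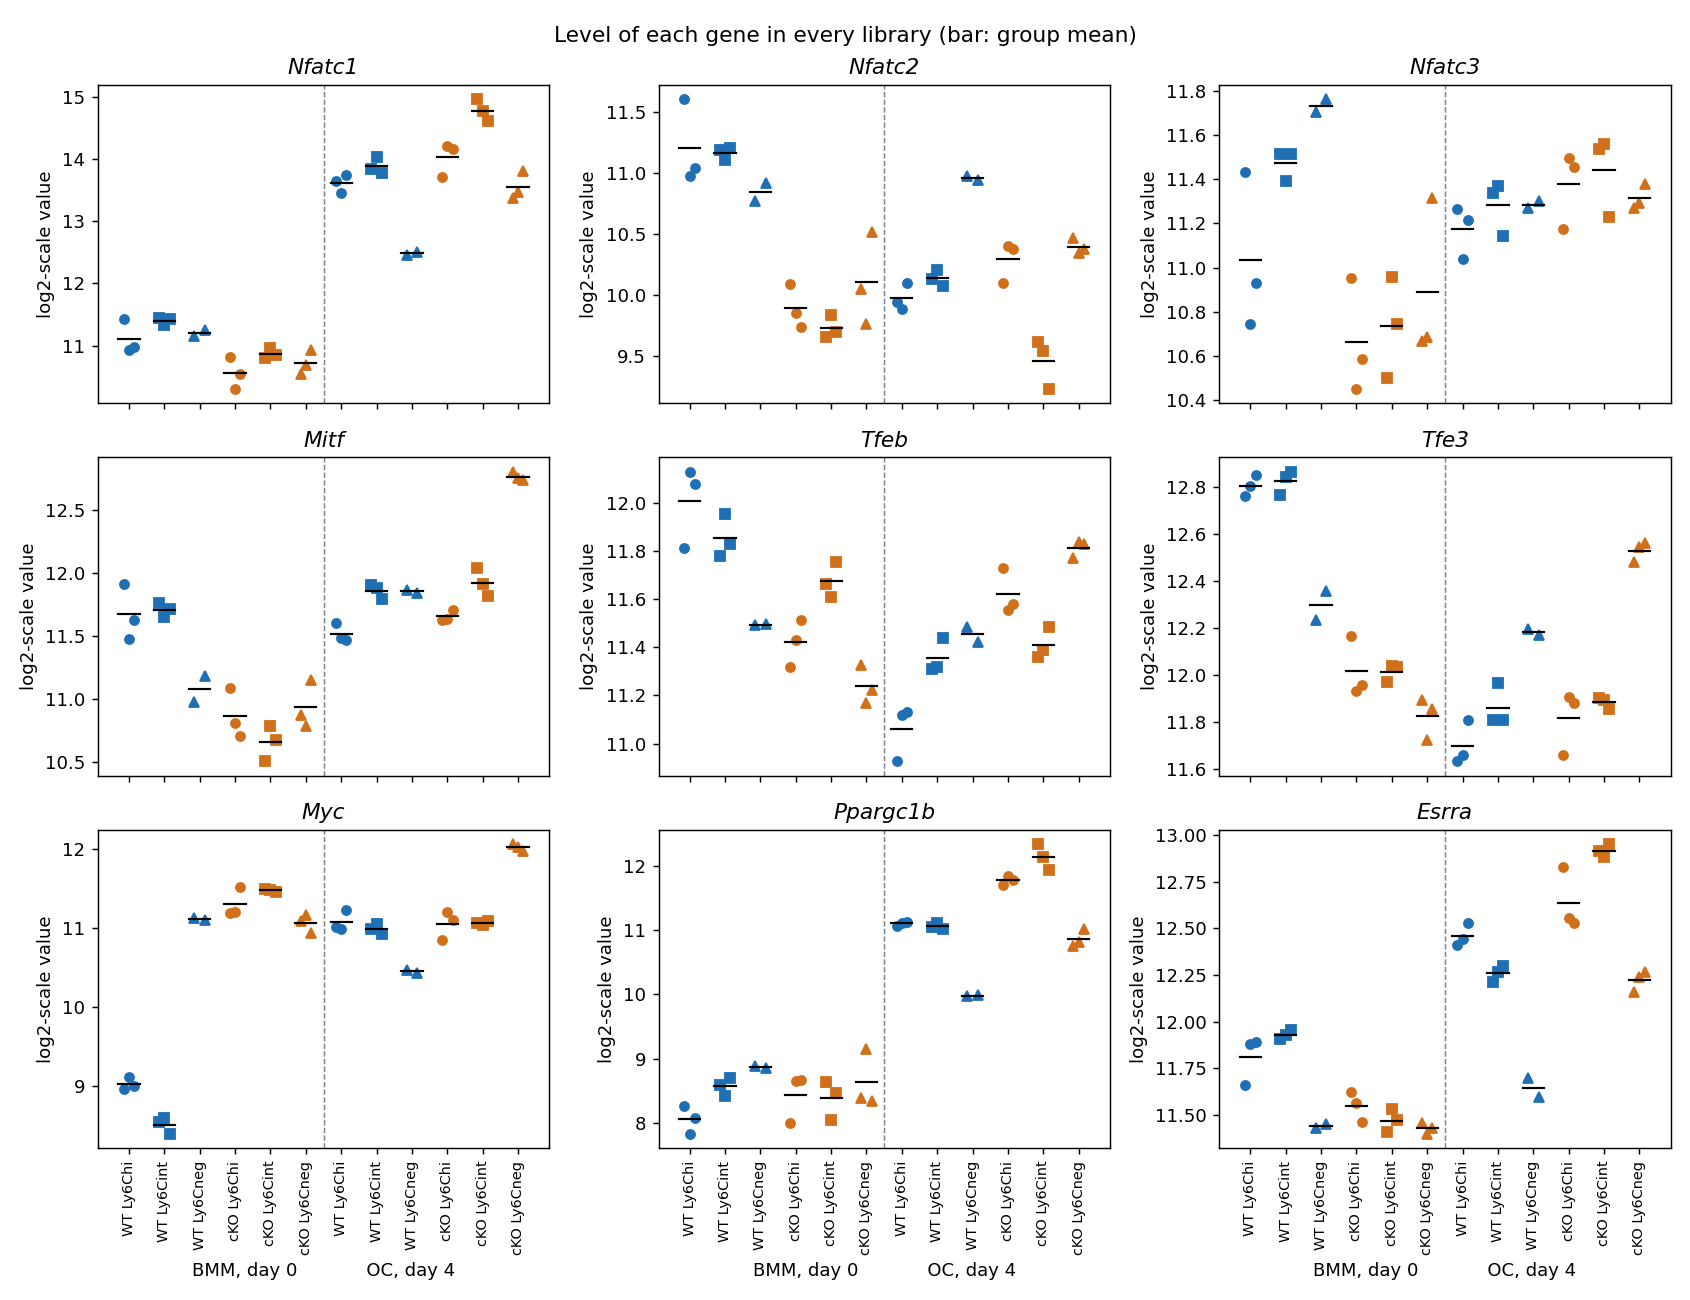
Level of each of the 9 genes in every library, as the deposited log2-scale value, with 1 panel per gene, each with its own vertical scale. Day 0 groups stand left of the dashed line and day 4 groups right of it, blue points are WT and orange points cKO-labelled libraries, and black bars are group means. Nfatc1 lies between 10.31 and 11.44 at day 0 and between 12.46 and 14.96 at day 4.

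Nfatc1 (ENSMUSG00000033016, mm10 chr18:80606205-80713071, minus strand) rose from day 0 to day 4 in every genotype and subset, least in WT Ly6Cneg cells and most in cKO-labelled Ly6Cint cells. In WT Ly6Chi cells its values were 11.43, 10.93 and 10.98 at day 0 and 13.65, 13.46 and 13.74 at day 4. In WT Ly6Cint cells they were 11.44, 11.34 and 11.43, then 13.84, 14.03 and 13.78, and in WT Ly6Cneg cells 11.16 and 11.25, then 12.46 and 12.51. Day 4 libraries were above all day 0 libraries in each subset, and the Ly6Cneg cultures stood below the others. The differences were 2.50 ± 0.14 (SE; limma adjusted p = 6.76e-15), 2.48 ± 0.14 (8.80e-15) and 1.28 ± 0.17 (1.90e-06), or 5.81-fold, 5.62-fold and 2.51-fold more reads.

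In cKO-labelled cells Nfatc1 also rose in every subset. The day 0 values were 10.82, 10.31 and 10.55 in Ly6Chi, 10.80, 10.96 and 10.85 in Ly6Cint, and 10.55, 10.69 and 10.93 in Ly6Cneg cells. The day 4 values were 13.72, 14.21 and 14.17, then 14.96, 14.78 and 14.61, then 13.37, 13.46 and 13.81. No day 0 library reached any day 4 library, and the 3 Ly6Cint cultures were the highest of all 34 libraries. The rises were 3.47 ± 0.14 (limma adjusted p = 3.47e-18), 3.91 ± 0.14 (1.46e-19) and 2.83 ± 0.14 (8.26e-16), which were 11.8-fold, 15.5-fold and 7.49-fold in reads. Each rise exceeded the WT rise of the same subset, by 0.97 (adjusted p of the interaction 0.000387), 1.43 (1.76e-06) and 1.54 (7.24e-06).

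At day 0 the cKO-labelled cells held less Nfatc1 RNA than WT cells, by 0.56 ± 0.14 in Ly6Chi (difference -0.56, limma adjusted p = 0.00281), 0.53 ± 0.14 in Ly6Cint (-0.53, 0.00355) and 0.48 ± 0.16 in Ly6Cneg cells (-0.48, 0.029). At day 4 they held more, by 0.90 ± 0.14 in Ly6Cint (2.03e-05) and 1.06 ± 0.16 in Ly6Cneg cultures (6.86e-06), or 1.85-fold and 2.07-fold in reads. The day 4 difference of 0.42 in Ly6Chi cultures was not called (0.0752) but was with voom on recovered reads (0.40, 0.0352), and the F test of genotype by subset did not call Nfatc1 at day 4 (0.0836). The Ly6Cneg call at day 0 was lost without WT replicate 1 (-0.53) or 2 (-0.43) or cKO-labelled replicate 1 (-0.39) or 2 (-0.47), and both it (-0.54, adjusted p = 0.113) and the Ly6Chi call (-0.63, 0.0756) were lost when recovered reads were tested with voom. The Ly6Cneg call was lost in 3 of the 9 processing alternatives, voom included, with differences of -0.67 to -0.38 over the 9. Neutrophil markers were higher in the cKO-labelled day 0 cells for 12 of 12 genes in Ly6Chi and 11 of 12 in Ly6Cint cells. Macrophage markers were lower there for 8 of 9 and 9 of 9. Of all genes, 14.4% and 25% were called higher and 15.3% and 14.7% lower in these Ly6Chi and Ly6Cint comparisons. The part of these markers in the day 0 differences of all 9 activators was not tested. Neutrophil sums were also higher than in WT in the cKO-labelled Ly6Cint and Ly6Cneg cultures at day 4. Their part in the day 4 differences was not tested either.

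**Figure D2:**
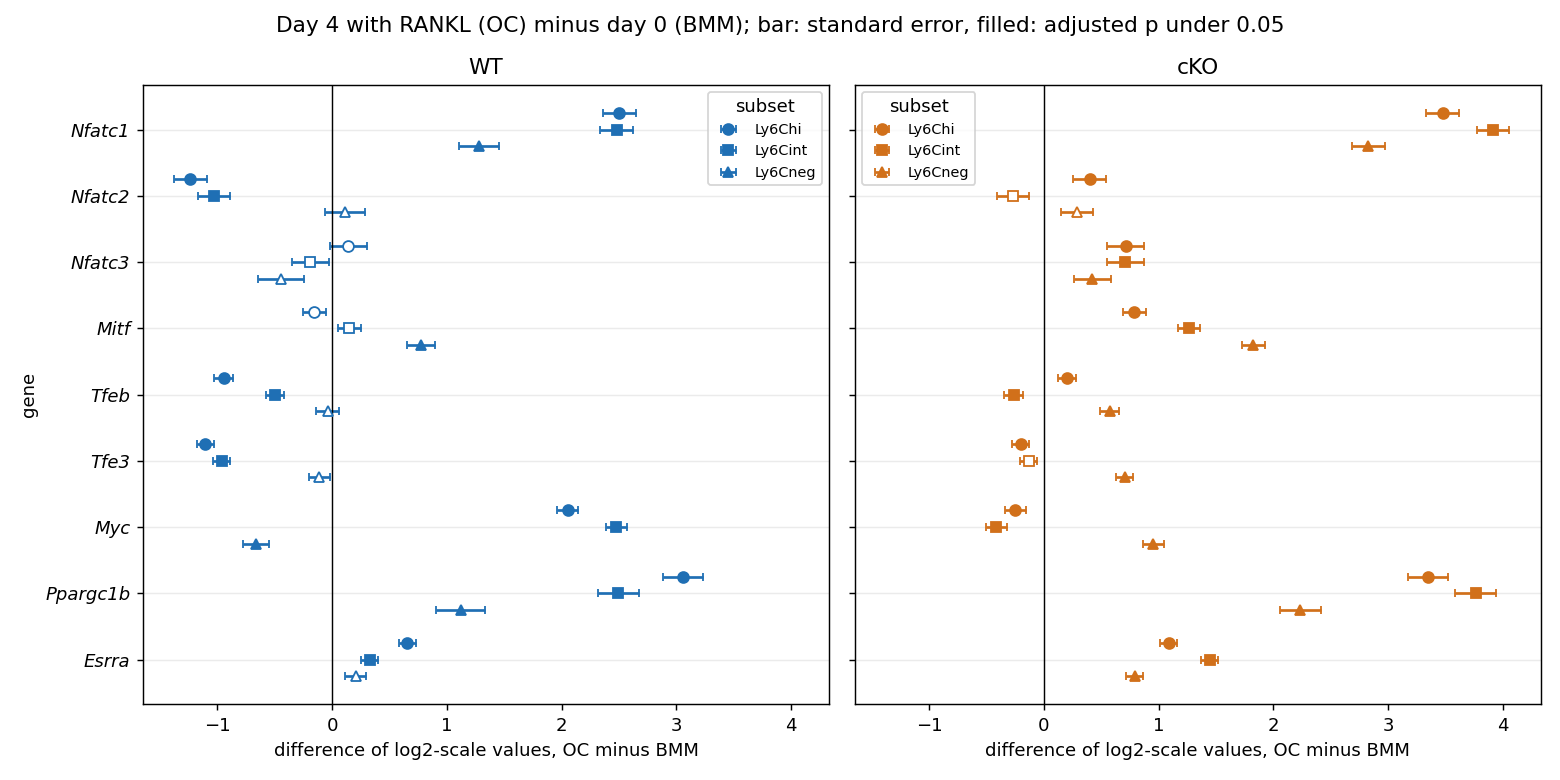
Difference between day 4 and day 0 (horizontal axis, log2-scale values, OC minus BMM) for each gene, WT left and cKO-labelled right, with the 3 subsets as different symbols. Filled symbols passed an adjusted p under 0.05 and bars are standard errors. Nfatc1 and Ppargc1b lie right of 0 in all 6 comparisons, from 1.28 to 3.91 and from 1.12 to 3.76.

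Within day 4, Nfatc1 was lower in WT Ly6Cneg than in WT Ly6Chi cultures by 1.13 ± 0.16 (difference -1.13, limma adjusted p = 2.74e-06) and than in WT Ly6Cint cultures by 1.40 ± 0.16 (-1.40, 1.55e-07). The 9 genes gave 8 and 6 calls in these comparisons, where 19% and 13.6% of all genes were called, and 1 call between WT Ly6Cint and Ly6Chi cultures, where 2.9% were. In cKO-labelled cultures Nfatc1 was higher in Ly6Cint than in Ly6Chi by 0.75 ± 0.14 (0.000777) and lower in Ly6Cneg than in Ly6Cint by 1.24 ± 0.14 (-1.24, 5.69e-08). The counts of calls there were 3 for Ly6Cint against Ly6Chi, 6 for Ly6Cneg against Ly6Chi and 8 for Ly6Cneg against Ly6Cint (5.27%, 23.5% and 24.7% of all genes). The Ly6Cint to Ly6Chi call was lost when limma was fitted to the compared libraries alone (adjusted p = 0.136). At day 0 no subset comparison called Nfatc1 in either genotype. From highest to lowest group mean the order began with cKO-labelled Ly6Cint cultures (14.78), cKO-labelled Ly6Chi (14.03), WT Ly6Cint (13.88), WT Ly6Chi (13.61), cKO-labelled Ly6Cneg (13.55) and WT Ly6Cneg cultures (12.48), followed by the day 0 groups from 11.40 down to 10.56. Of the 11 neighbouring pairs in that order 6 overlapped in their libraries, among them cKO-labelled Ly6Chi with WT Ly6Cint cultures and WT Ly6Chi with cKO-labelled Ly6Cneg cultures.

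Nfatc2 (ENSMUSG00000027544, mm10 chr2:168476410-168601657, minus strand), an NFAT factor regulated by the same phosphatase, moved the other way in WT cells. Its values in WT Ly6Chi cells were 11.61, 10.98 and 11.04 at day 0 and 9.94, 9.88 and 10.10 at day 4, and in WT Ly6Cint cells 11.19, 11.11 and 11.20, then 10.13, 10.20 and 10.07. All day 4 libraries of these subsets were below the day 0 ones, whereas the Ly6Cneg values of 10.77 and 10.92 at day 0 lay just below the 10.97 and 10.94 of day 4. Nfatc2 fell by 1.24 ± 0.14 in Ly6Chi (limma adjusted p = 7.02e-09, 2.63-fold fewer reads) and by 1.03 ± 0.14 in Ly6Cint cells (2.84e-07, 2.23-fold), with an uncalled difference of 0.11 ± 0.17 in Ly6Cneg cells (0.828). In cKO-labelled cells it was low already at day 0, with group means of 9.89, 9.73 and 10.11. It was below WT there by 1.32 (difference -1.32, 2.38e-09), 1.44 (-1.44, 3.52e-10) and 0.74 (-0.74, 0.000786), or 2.82-fold, 3.14-fold and 1.8-fold fewer reads. At day 4 the cKO-labelled Ly6Cint cultures, at 9.61, 9.54 and 9.23, held the lowest Nfatc2 values of any group and were 0.68 below WT (-0.68, 0.00056). The day 4 call in Ly6Cneg cultures (-0.56, 0.00938) was lost without WT replicate 1 (-0.55) or 2 (-0.58).

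Nfatc3 (ENSMUSG00000031902, mm10 chr8:106058840-106130537, plus strand), another NFAT factor that calcineurin controls, varied least among the 3 relatives, with group means from 10.66 to 11.73. No WT subset gave a called difference between stages; the WT differences were 0.14, -0.19 and -0.45. In cKO-labelled cells it rose by 0.71 ± 0.16 in Ly6Chi (limma adjusted p = 0.000699) and 0.71 ± 0.16 in Ly6Cint cells (0.000648), 1.72-fold and 1.70-fold in reads. In cKO-labelled Ly6Cneg cells the stages overlapped, and the called difference of 0.42 (0.0367) was lost without day 4 replicate 1 (0.45), 2 (0.43) or 3 (0.39) or day 0 replicate 1 (0.31) or 2 (0.32). It was also lost with rescaling on high genes (0.25) and with quantile normalization (0.23). At day 0 it was lower in cKO-labelled than in WT Ly6Cint (-0.74, 0.000536) and Ly6Cneg cells (-0.84, 0.00106), and at day 4 no subset differed by a called amount. The RefSeq window before one of the 2 listed Nfatc3 starts (GRCm38.p6, chr8:106059340-106059589, plus strand) is shown because it holds the palindromic E-box CACGTG, in capitals, which MYC with MAX and the MITF/TFE factors can bind; its first base is at -143 from the start.

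Nfatc3: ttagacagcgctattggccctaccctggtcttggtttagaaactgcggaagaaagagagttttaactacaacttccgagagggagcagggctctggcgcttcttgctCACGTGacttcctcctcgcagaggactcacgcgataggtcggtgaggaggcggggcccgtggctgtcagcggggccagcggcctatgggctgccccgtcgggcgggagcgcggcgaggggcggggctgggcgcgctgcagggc

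Of 32851 mouse promoter windows of 250 bases, 6.02% hold CACGTG on either strand. The window has no match to the NFAT core GGAAA (55.6% of windows), the ERR half-site AAGGTCA (4.08%), the AP-1 site TGAGTCA (4.46%) or the core of the interferon response element (2.98%). The other Nfatc3 window has 1 GGAAA and none of the other 4 motifs. A match describes letters only. Promoter windows of 6 of the 9 genes were found by symbol.

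Compared by reads per kilobase of exon, Nfatc1 was the most abundant of the 3 NFAT genes in all 12 groups. Its lead over the next gene was 1.07-fold in WT Ly6Cneg cells at day 0 and 1.32-fold in WT Ly6Chi cells at day 0. At day 4 the lead was 8.73-fold, 9.65-fold and 3.71-fold in WT Ly6Chi, Ly6Cint and Ly6Cneg cultures, and 9.96-fold, 15.9-fold and 7.51-fold in the cKO-labelled ones. With the longest transcript as length, Nfatc3 led in WT Ly6Cneg cells at day 0 by 1.18-fold, and Nfatc1 led in the other 11 groups. Of the remaining relatives, Nfatc4 stayed near the low end of the scale, with group means of 4.78 to 7.08. Nfat5, an NFAT relative that does not depend on calcineurin, was lower in cKO-labelled cells of every subset at day 0 (differences -1.34, -1.24 and -0.77, all called).

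The genes that NFATc1 is known to switch on in osteoclasts followed the stage in every group. All 11 listed genes rose in each of the 6 comparisons of day 4 with day 0, with medians of 6.05, 5.92 and 2.58 in WT and 5.53, 5.85 and 4.22 in cKO-labelled cells, where the medians over all genes lay between -0.36 and -0.03. The shares of all genes called higher there were 13.7%, 13.1% and 6.55% in WT and 15.5%, 16.4% and 14.5% in cKO-labelled cells. In WT Ly6Chi cells Ctsk, the main collagen-degrading protease, and Acp5, the phosphatase used to stain osteoclasts, each rose by 7.38, and the fusion gene Dcstamp by 6.70. Of the 11 genes 9 are also in the osteoclast marker list, so this list and the marker sums are largely 1 measurement. In WT Ly6Cneg cultures all 11 were lower than in Ly6Chi (median -3.24) and than in Ly6Cint cultures (median -2.90). In these 2 comparisons 8.12% and 5.44% of all genes were called lower, and the medians over all genes were 0.20 and 0.18. Between genotypes at day 4, 0 of 11 were called in Ly6Chi cultures, 4 rose in Ly6Cint (median 0.60, led by the calcitonin receptor Calcr at 1.5) and 10 rose in Ly6Cneg cultures (median 2.58), among them Calcr by 3.46, the integrin Itgb3 by 2.91, Acp5 by 2.83 and Ctsk by 2.78. The shares of all genes called higher between genotypes at day 4 were 4.25%, 8.18% and 9.53%. Ctsk means were 18.58, 17.81 and 14.65 in WT and 18.20, 18.41 and 17.43 in cKO-labelled cultures.

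The genes that feed calcium signals into calcineurin moved in both directions. Of 19 listed, 3 rose and 10 fell in WT Ly6Chi cells, 4 rose and 10 fell in WT Ly6Cint cells, and 5 rose and 1 fell in WT Ly6Cneg cells; in cKO-labelled cells the counts were 6 and 6, 7 and 8, and 8 and 1. Of all genes 13.7%, 13.1% and 6.55% were called higher and 20.4%, 15.4% and 5.69% lower in WT Ly6Chi, Ly6Cint and Ly6Cneg cells. The cKO-labelled shares were 15.5%, 16.4% and 14.5% higher and 26.3%, 32.3% and 28% lower. Oscar, a collagen receptor that signals through an immunoreceptor adaptor, rose by 6.53, 6.61 and 2.72 in WT and by 5.51, 5.74 and 4.22 in cKO-labelled cells, and is itself in the NFATc1 target list. Itpr3, a calcium channel of the endoplasmic reticulum, rose by 3.07 in WT Ly6Chi and 2.67 in WT Ly6Cint cells. Trem2, another adaptor-coupled receptor, fell by 1.91 in WT Ly6Chi cells. At day 0 the kinase Syk was lower in cKO-labelled Ly6Chi (-1.22) and Ly6Cint cells (-1.27).

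Among 12 listed kinases and inhibitors that hold NFAT in the cytoplasm, 8, 9 and 8 rose and 2, 2 and 2 fell from day 0 to day 4 in cKO-labelled cells (medians 0.59, 0.71 and 0.42). Over all genes the medians there were -0.27, -0.34 and -0.36, with 15.5%, 16.4% and 14.5% called higher and 26.3%, 32.3% and 28% lower. In WT cells 5, 4 and 2 rose and 4, 3 and 1 fell. The WT shares of all genes were 13.7%, 13.1% and 6.55% higher and 20.4%, 15.4% and 5.69% lower. The calcineurin inhibitor Rcan1, a known NFAT target, rose by 3.07, 2.70 and 1.03 in WT and by 1.69, 2.95 and 2.52 in cKO-labelled cells. Its difference between genotypes at day 4 was -1.07 in Ly6Chi, 0.45 in Ly6Cint and 1.87 in Ly6Cneg cultures, all called. Its relative Rcan2 was higher in cKO-labelled cells in all 6 comparisons, by 1.31, 2.01 and 1.70 at day 0 and by 1.68, 2.37 and 2.71 at day 4.

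Mitf (ENSMUSG00000035158, mm10 chr6:97807052-98021349, plus strand), which acts with NFATc1 on Ctsk and Acp5, rose between stages in WT Ly6Cneg cells and in every cKO-labelled subset. In WT Ly6Chi and Ly6Cint cells the stage differences of -0.15 and 0.15 were not called, and in WT Ly6Cneg cells it rose from 10.98 and 11.18 to 11.87 and 11.84 (0.78 ± 0.12, limma adjusted p = 5.26e-06, 1.77-fold in reads). In cKO-labelled cells the values went from 11.09, 10.81 and 10.71 to 11.63, 11.63 and 11.71 in Ly6Chi cells. They went from 10.51, 10.79 and 10.68 to 12.04, 11.91 and 11.82 in Ly6Cint and from 10.87, 10.79 and 11.15 to 12.80, 12.75 and 12.74 in Ly6Cneg cells. The stages did not overlap in any cKO-labelled subset, and the Ly6Cneg cultures held the highest Mitf values of all libraries. The rises were 0.79 ± 0.10 (2.07e-08), 1.26 ± 0.10 (1.08e-13) and 1.83 ± 0.10 (5.78e-18), or 1.8-fold, 2.56-fold and 3.71-fold in reads.

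The cKO-labelled day 0 cells had less Mitf than WT in Ly6Chi (difference -0.80, limma adjusted p = 1.56e-08, 1.82-fold fewer reads) and Ly6Cint cells (-1.05, 2.88e-11, 2.19-fold), with -0.14 in Ly6Cneg cells not called. At day 4 only the Ly6Cneg comparison was called among the 3 (0.91, 2.92e-08), and the F test of genotype by subset called Mitf at day 4 (5.07e-05). Stromal markers, 7 of 7 measured, were summed at 14.05 to 14.57 in the cKO-labelled Ly6Cneg cultures, at 10.55 to 10.93 in the WT ones and at 9.39 to 11.65 in all groups but the first, and their part in the Ly6Cneg differences of any of the 9 genes was not tested. The 250 bases before 1 of 3 listed Mitf starts (RefSeq, GRCm38.p6, chr6:97806808-97807057, plus strand) are shown because they hold the ERR half-site, read on the other strand as TGACCTT in capitals, at -152 from the start.

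Mitf: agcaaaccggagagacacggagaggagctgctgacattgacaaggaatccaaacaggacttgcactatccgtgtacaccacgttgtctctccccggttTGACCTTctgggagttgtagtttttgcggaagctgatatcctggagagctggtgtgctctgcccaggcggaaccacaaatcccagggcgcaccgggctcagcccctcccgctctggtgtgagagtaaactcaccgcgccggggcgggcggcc

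This window has none of the other 4 motifs. Each of the other 2 Mitf windows has 1 GGAAA and none of the other 4.

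Tfeb (ENSMUSG00000023990, mm10 chr17:47737030-47792419, plus strand), the best known activator of lysosome genes, and Tfe3 (ENSMUSG00000000134, mm10 chrX:7762560-7775202, plus strand), its close relative, fell together in the WT Ly6Chi and Ly6Cint cells. Tfeb lay between 11.78 and 12.13 in WT Ly6Chi and Ly6Cint cells at day 0 and between 10.93 and 11.44 at day 4. It fell by 0.95 ± 0.08 in Ly6Chi (limma adjusted p = 1.24e-12, 2-fold fewer reads) and 0.50 ± 0.08 in Ly6Cint cells (3.05e-06, 1.44-fold). Tfe3 lay between 12.76 and 12.86 at day 0 and between 11.63 and 11.96 at day 4, and fell by 1.11 ± 0.07 (1.86e-15, 2.17-fold fewer reads) and 0.96 ± 0.07 (9.79e-14, 1.96-fold). The stages did not overlap for either gene. In WT Ly6Cneg cells neither was called, with differences of -0.04 and -0.11. In cKO-labelled Ly6Cneg cells both rose, Tfeb by 0.57 ± 0.08 (3.29e-07) and Tfe3 by 0.70 ± 0.07 (6.58e-10).

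In the cKO-labelled Ly6Chi and Ly6Cint cells the stage differences of Tfeb and Tfe3 were small and depended on the scaling. Tfeb differed by 0.20 in Ly6Chi (limma adjusted p = 0.0432) and by -0.26 in Ly6Cint cells (0.00648), and the latter became 0.10 with median-of-ratios rescaling. Tfe3 differed by -0.20 in Ly6Chi cells (0.0294), which became 0.07 with that rescaling, and its -0.13 in Ly6Cint cells was not called. The Tfeb call in Ly6Chi cells was lost without day 4 replicate 1 (0.15) or 3 (0.22) or day 0 replicate 1 (0.15) or 2 (0.21), and the Tfe3 call without replicate 1 of day 4 (-0.12) or of day 0 (-0.13). At day 0 Tfe3 was lower in cKO-labelled cells of every subset (-0.79, 3.21e-11; -0.81, 1.59e-11; -0.47, 4.99e-05), by 1.73-fold, 1.76-fold and 1.40-fold in reads. Tfeb was lower by 0.59 in Ly6Chi cells (-0.59, 1.67e-07). It was also called lower in Ly6Cneg cells, a call lost in 4 of 5 fits with 1 library left out (-0.30 to -0.22). At day 4 Tfeb was higher in cKO-labelled Ly6Chi cultures by 0.56 ± 0.08 (2.67e-06, 1.51-fold). Both genes were also called higher in cKO-labelled Ly6Cneg cultures at day 4. With voom on recovered reads the differences there were 0.38 for Tfeb (adjusted p = 0.0012) and 0.35 for Tfe3 (0.000253). This Tfeb call was lost in 1 of 5 fits with 1 library left out, and the Tfe3 call in 1 of 9 processing alternatives.

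Which of Mitf, Tfeb and Tfe3 was most abundant per kilobase depended on the length used. By the union of exons Tfe3 led in the 3 WT day 0 groups, by 1.07-fold to 1.21-fold, and Mitf led in the 3 WT day 4 groups, by 1.19-fold to 1.32-fold. By the longest transcript Tfeb led in all 12 groups. The related Tfec was lower in cKO-labelled than in WT Ly6Cneg cells at day 0 (difference -1.05) and day 4 (-1.02), both called.

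Of 22 listed lysosomal and nutrient-sensing targets of these factors, 15 fell and 2 rose in cKO-labelled against WT Ly6Chi cells at day 0 (median -0.56, all genes 0.00), and 17 fell and 2 rose in Ly6Cint cells (median -0.61, all genes 0.28). In Ly6Cneg cells 8 fell and 6 rose. In the same order 15.3%, 14.7% and 9.42% of all genes were called lower and 14.4%, 25% and 13.6% higher. Among the 22 targets the melanosome and lysosome glycoprotein Gpnmb was lower in Ly6Chi and Ly6Cint cells (differences -1.97 and -2.18), as was Flcn, a nutrient-sensing regulator of these factors (-1.45 and -1.2). From day 0 to day 4 in cKO-labelled cells 16, 17 and 18 rose and 3, 2 and 0 fell (medians 0.48, 0.67 and 0.46). In WT cells 11, 10 and 10 rose and 7, 7 and 1 fell (medians 0.12, 0.15 and 0.24). Over all genes 13.7%, 13.1% and 6.55% were called higher and 20.4%, 15.4% and 5.69% lower in WT. The cKO-labelled shares were 15.5%, 16.4% and 14.5% higher and 26.3%, 32.3% and 28% lower. Clcn7, the chloride transporter of the resorbing membrane, rose by 2.44, 1.63 and 1.44 in WT and by 3.53, 3.92 and 2.23 in cKO-labelled cells, and Rragd, a nutrient-sensing GTPase, by 1.78, 2.08 and 2 and by 2.51, 2.51 and 1.97. At day 4 cKO-labelled Ly6Cneg cultures held more Sqstm1, an autophagy receptor (1.16), and Atp6v1h, a proton pump subunit (1.06), among 12 higher and 4 lower. That comparison called 9.53% of all genes higher and 7.52% lower.

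Myc (ENSMUSG00000022346, mm10 chr15:61985391-61990374, plus strand) separated 2 of the 6 day 0 groups from all others. Its values were 8.96, 9.11 and 8.99 in WT Ly6Chi and 8.55, 8.59 and 8.40 in WT Ly6Cint cells at day 0, from 372, 310, 399, 310, 350 and 209 reads. In WT Ly6Cneg cells at day 0 they were 11.13 and 11.10, from 2488 and 2752 reads. In cKO-labelled cells at day 0 they were 11.18, 11.20 and 11.52 in Ly6Chi, 11.49, 11.48 and 11.46 in Ly6Cint, and 11.09, 11.17 and 10.94 in Ly6Cneg cells. The 6 WT Ly6Chi and Ly6Cint libraries were below all other 28 libraries. The genotype differences at day 0 were 2.28 ± 0.09 in Ly6Chi (limma adjusted p = 2.54e-22, 6.51-fold in reads) and 2.96 ± 0.09 in Ly6Cint cells (9.24e-26, 12.2-fold). The difference of -0.05 in Ly6Cneg cells was not called (0.762), and the F test of genotype by subset called Myc at day 0 (1.49e-19). Across WT day 0 subsets Myc was higher in Ly6Cneg than in Ly6Chi cells by 2.09 ± 0.10 (1.60e-19) and than in Ly6Cint cells by 2.60 ± 0.10 (2.36e-22).

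By day 4 Myc had risen in WT Ly6Chi cells to 11.01, 10.98 and 11.23 and in WT Ly6Cint cells to 10.99, 11.04 and 10.93. These rises were 2.05 ± 0.09 (limma adjusted p = 3.82e-21, 5.5-fold in reads) and 2.47 ± 0.09 (1.43e-23, 8.46-fold). In WT Ly6Cneg cells it fell by 0.66 ± 0.11 to 10.47 and 10.43 (1.43e-05, 1.67-fold fewer reads), and in cKO-labelled Ly6Cneg cells it rose by 0.95 ± 0.09 to 12.06, 12.03 and 11.97 (3.23e-11, 2.01-fold). The 3 cKO-labelled Ly6Cneg cultures were the highest of all 34 libraries, and exceeded WT by 1.57 ± 0.10 (1.55e-15, 3.23-fold), whereas the Ly6Chi and Ly6Cint differences of -0.02 and 0.07 at day 4 were not called. In cKO-labelled Ly6Chi and Ly6Cint cells the stage differences of -0.25 (0.0248) and -0.41 (0.000213) became 0.03 and -0.05 under median-of-ratios rescaling. The Ly6Chi call was also lost without day 4 replicate 1 (-0.15) or day 0 replicate 3 (-0.14).

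**Figure D3:**
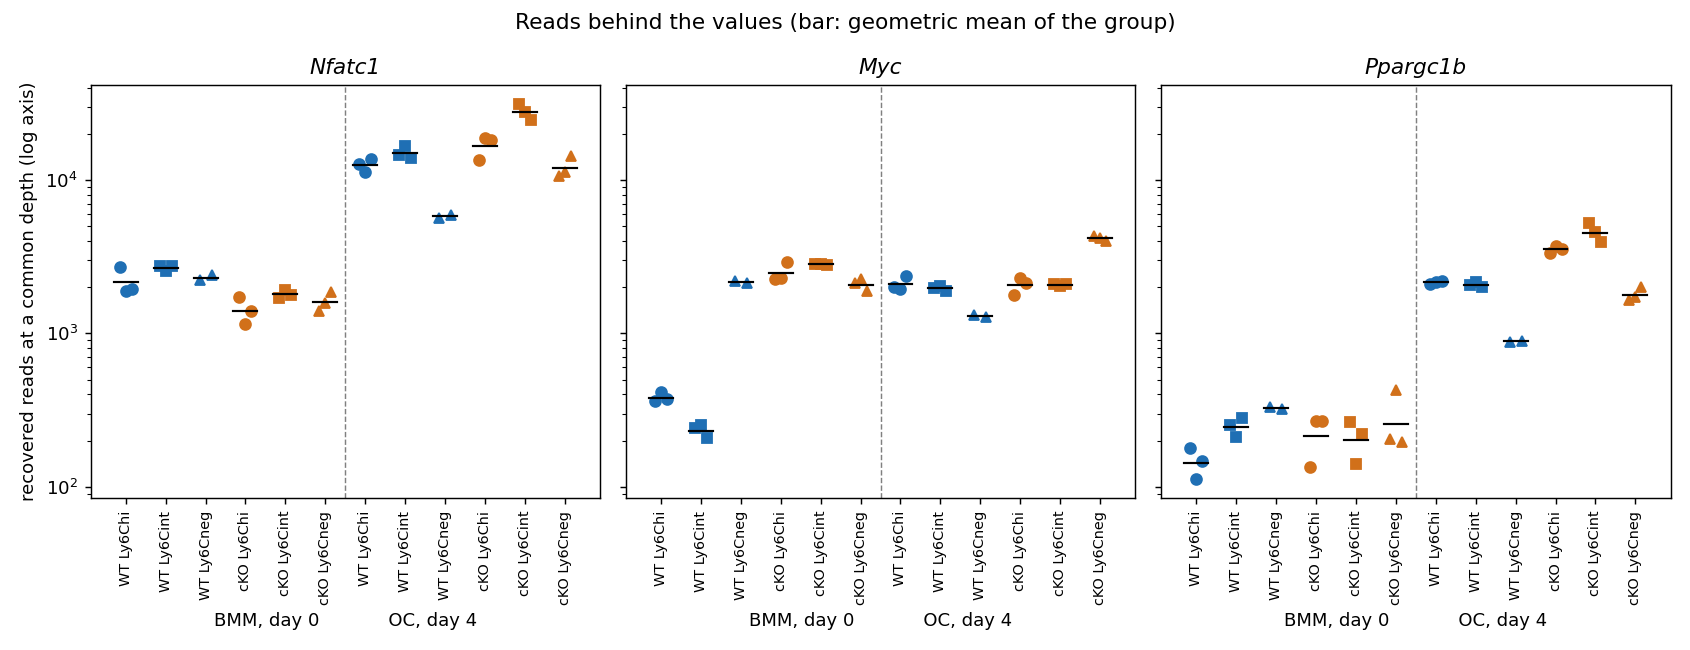
Recovered reads of Nfatc1, Myc and Ppargc1b in every library at a common depth, on a log axis, with day 0 left and day 4 right of the dashed line. Points are libraries (blue WT, orange cKO-labelled) and bars are geometric means. Mean Myc reads at a common depth were 381 and 233 in WT Ly6Chi and Ly6Cint cells at day 0, and between 1294 and 4177 in the other groups.

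The listed MYC targets, genes of ribosome assembly, nucleotide and polyamine synthesis, were called in some of these comparisons and not in others. From day 0 to day 4, 19 of 20 rose in WT Ly6Chi (median 1.18, all genes -0.28) and 20 of 20 in WT Ly6Cint cells (median 1.04, all genes -0.06), and in WT Ly6Cneg cells 0 rose and 3 fell. In cKO-labelled cells 5, 7 and 6 rose and 7, 6 and 8 fell. Over all genes 13.7%, 13.1% and 6.55% were called higher and 20.4%, 15.4% and 5.69% lower in WT. The cKO-labelled shares were 15.5%, 16.4% and 14.5% higher and 26.3%, 32.3% and 28% lower. At day 0, 19 of 20 were higher in cKO-labelled than in WT Ly6Chi cells (median 1.2), 18 in Ly6Cint (median 0.99) and 12 in Ly6Cneg cells, where 1 was lower (median 0.40). The medians over all genes there were 0.00, 0.28 and 0.27, and 14.4%, 25% and 13.6% of all genes were called higher. Srm, the spermidine synthase, rose by 1.85 and 1.88 in WT Ly6Chi and Ly6Cint cells and fell by 0.76 in WT Ly6Cneg cells, and was higher in cKO-labelled day 0 cells by 2.16, 2.17 and 0.72. The nucleolar gene Nop58 was higher there by 1.96 and 1.73. At day 4, 13 of 20 were higher and 2 lower in cKO-labelled than in WT Ly6Cneg cultures (median 0.47), with Srm at 1.33 and Nolc1 at 0.88. That comparison called 9.53% of all genes higher and 7.52% lower.

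Among 11 partners and antagonists of MYC, Mycl, a member of the MYC family, rose from day 0 to day 4 in all 6 comparisons, by 3.37, 2.56 and 2.02 in WT and 3.06, 2.73 and 1.89 in cKO-labelled cells. Mxd1, which competes with MYC for MAX, fell in WT Ly6Chi and Ly6Cint cells (differences -1.46 and -3.18) and in the cKO-labelled ones (-2.32 and -2.97). Mxd3, another antagonist, was higher in cKO-labelled cells at day 0 by 2.84 in Ly6Chi and 1.47 in Ly6Cint cells, and lower in the Ly6Cneg cultures (-2.06). The list gave 3, 1 and 2 rises and 6, 5 and 2 falls in WT, and 5, 5 and 5 rises and 5, 5 and 1 falls in cKO-labelled cells. Over all genes 13.7%, 13.1% and 6.55% were called higher and 20.4%, 15.4% and 5.69% lower in WT. The cKO-labelled shares were 15.5%, 16.4% and 14.5% higher and 26.3%, 32.3% and 28% lower.

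Ppargc1b (ENSMUSG00000033871, mm10 chr18:61298136-61400431, minus strand), the coactivator PGC-1beta, had few reads at day 0 and rose in all 6 comparisons. Its values in WT Ly6Chi cells were 8.26, 7.83 and 8.07 at day 0, from 184, 84 and 157 reads, and 11.08, 11.12 and 11.13 at day 4. In WT Ly6Cint cells they were 8.59, 8.42 and 8.70, then 11.05, 11.11 and 11.03, and in WT Ly6Cneg cells 8.88 and 8.85, then 9.97 and 9.99. The stages were far apart in every subset, and the WT Ly6Cneg cultures were the lowest at day 4. The rises were 3.06 ± 0.18 (limma adjusted p = 1.61e-14), 2.49 ± 0.18 (1.63e-12) and 1.12 ± 0.22 (0.000346), which in reads were 15.1-fold, 8.46-fold and 2.70-fold. In cKO-labelled cells, with 100 to 320 reads in the day 0 libraries, they were 3.35 ± 0.18 (2.37e-15), 3.76 ± 0.18 (1.19e-16) and 2.24 ± 0.18 (3.04e-11), or 16.6-fold, 22.6-fold and 6.92-fold.

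The genotypes did not differ in Ppargc1b by a called amount at day 0 (differences 0.38, -0.19 and -0.23; limma adjusted p = 0.111, 0.420 and 0.409). At day 4 the cKO-labelled values were 11.71, 11.85 and 11.79 in Ly6Chi, 12.34, 12.14 and 11.94 in Ly6Cint, and 10.76, 10.81 and 11.02 in Ly6Cneg cultures. All were above the WT libraries of their subset, by 0.67 ± 0.18 (0.0136), 1.08 ± 0.18 (3.70e-05) and 0.88 ± 0.20 (0.00135), or 1.64-fold, 2.19-fold and 2.02-fold in reads. The Ly6Chi call was lost without cKO-labelled replicate 2 (0.64) or WT replicate 1 (0.66). The Ly6Cneg cultures were below the Ly6Chi and Ly6Cint ones in WT (-1.13, 7.69e-05 and -1.08, 0.000233) and in cKO-labelled cells (-0.92, 0.000219 and -1.28, 1.63e-06).

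Esrra (ENSMUSG00000024955, mm10 chr19:6910977-6921813, minus strand), which encodes the nuclear receptor ERRalpha, rose in 5 of the 6 comparisons of day 4 with day 0, by less than Ppargc1b. Its WT values went from 11.66, 11.88 and 11.89 to 12.41, 12.44 and 12.53 in Ly6Chi cells and from 11.91, 11.93 and 11.95 to 12.21, 12.27 and 12.30 in Ly6Cint cells, without overlap. It rose by 0.65 ± 0.07 (limma adjusted p = 2.05e-09, 1.58-fold in reads) and 0.33 ± 0.07 (0.000483, 1.26-fold), and 0.20 ± 0.09 in Ly6Cneg cells was not called (0.179). In cKO-labelled cells it rose by 1.09 ± 0.07 (2.92e-15), 1.44 ± 0.07 (4.55e-19) and 0.79 ± 0.07 (3.04e-11), 2.16-fold, 2.77-fold and 1.76-fold in reads. At day 4 the cKO-labelled Ly6Cint cultures, at 12.91, 12.88 and 12.95, were the highest of all libraries. They exceeded WT by 0.66 ± 0.07 (7.96e-09), and the Ly6Cneg cultures did by 0.58 ± 0.08 (9.23e-07). The single listed Esrra window (RefSeq, GRCm38.p6, chr19:6921809-6922058, minus strand) is shown because none of the 5 motifs, its own AAGGTCA included, occurs in it; it has no capitals.

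Esrra: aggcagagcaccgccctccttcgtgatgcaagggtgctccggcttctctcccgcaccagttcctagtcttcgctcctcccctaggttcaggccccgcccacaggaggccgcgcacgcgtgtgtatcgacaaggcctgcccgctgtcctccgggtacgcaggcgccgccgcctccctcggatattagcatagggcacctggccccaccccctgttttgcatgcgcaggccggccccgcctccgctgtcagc

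**Figure D4:**
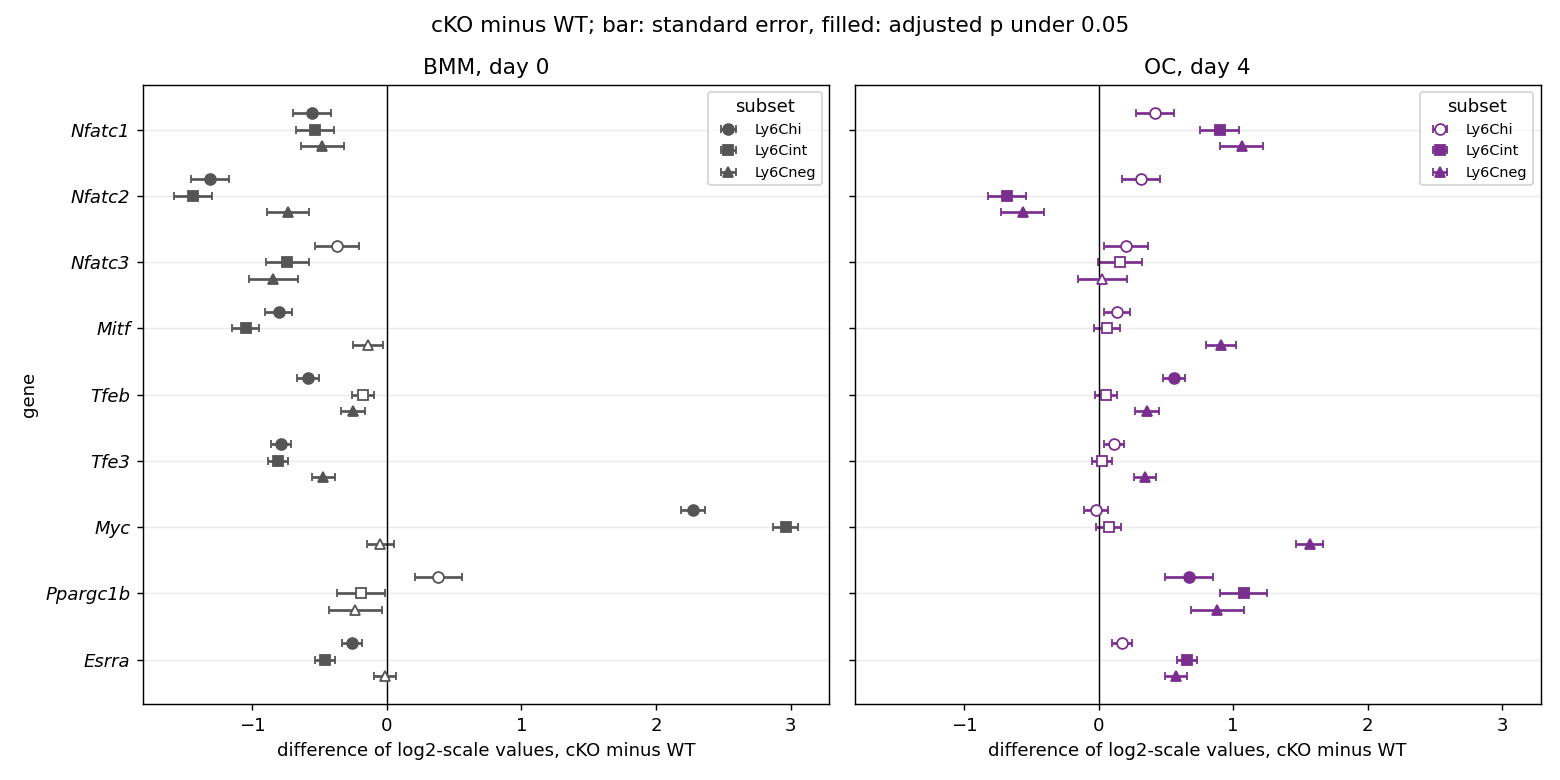
Difference between cKO-labelled and WT libraries (horizontal axis, log2-scale values, cKO minus WT) for each gene at day 0 (left) and day 4 (right), by subset. Filled symbols passed an adjusted p under 0.05 and bars are standard errors. Myc lies at 2.28 and 2.96 at day 0 in Ly6Chi and Ly6Cint cells and at 1.57 at day 4 in Ly6Cneg cultures.

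Mitochondrial targets of the pair rose with it in the Ly6Chi and Ly6Cint cells. Of 18 listed, 17 and 17 rose and 0 fell in WT Ly6Chi (median 1.68, all genes -0.28) and Ly6Cint cells (median 1.52, all genes -0.06), and 8 rose and 0 fell in WT Ly6Cneg cells (median 0.28). In cKO-labelled cells 15, 17 and 9 rose and 0 fell (medians 1.29, 1.77 and 0.25). The shares of all genes called higher were 13.7%, 13.1% and 6.55% in WT and 15.5%, 16.4% and 14.5% in cKO-labelled cells. The citrate cycle gene Idh3a rose by 2.94 in WT Ly6Chi and 2.75 in WT Ly6Cint cells, and Mdh2, of the same cycle, by 2.86 and 2.34. The respiratory chain subunit Uqcrc2 rose by 2.23, 2.77 and 1.01 in cKO-labelled cells. Between genotypes at day 4, 11, 16 and 9 were higher in cKO-labelled cultures and 0 lower (medians 0.32, 0.69 and 0.31), among them Uqcrc2 (0.96) and Mdh2 (0.87) in Ly6Cint cultures. At day 0, where Ppargc1b was not called and Esrra was lower in Ly6Chi (-0.26, 0.00601) and Ly6Cint cells (-0.46, 3.54e-06), 13, 11 and 8 of the targets were higher and 2, 2 and 0 lower. Between genotypes, 4.25%, 8.18% and 9.53% of all genes were called higher at day 4 and 14.4%, 25% and 13.6% at day 0. The day 4 Ly6Cneg cultures had 17 of 18 below the Ly6Chi cultures in both genotypes (medians -0.99 in WT and -0.92 in cKO-labelled cells). There 8.12% and 9.08% of all genes were called lower.

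Of 11 further PGC-1 and ERR genes and mitochondrial regulators, 5, 6 and 1 rose and 2, 1 and 2 fell in WT, and 4, 4 and 3 rose and 3, 4 and 6 fell in cKO-labelled cells. Over all genes 13.7%, 13.1% and 6.55% were called higher and 20.4%, 15.4% and 5.69% lower in WT. The cKO-labelled shares were 15.5%, 16.4% and 14.5% higher and 26.3%, 32.3% and 28% lower. Perm1, a partner of PGC-1 and ERR in muscle, rose by 2.98, 2.04 and 1.87 in WT and by 3.22, 3.49 and 1.95 in cKO-labelled cells. Tfrc, the transferrin receptor that brings in iron, rose by 2.93 and 2.17 in WT Ly6Chi and Ly6Cint cells and fell by 2.33 in WT Ly6Cneg cells. It rose by 2.24, 2.67 and 2.16 in cKO-labelled cells, and was higher by 3.12 in cKO-labelled than in WT Ly6Cneg cultures.

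**Figure D5:**
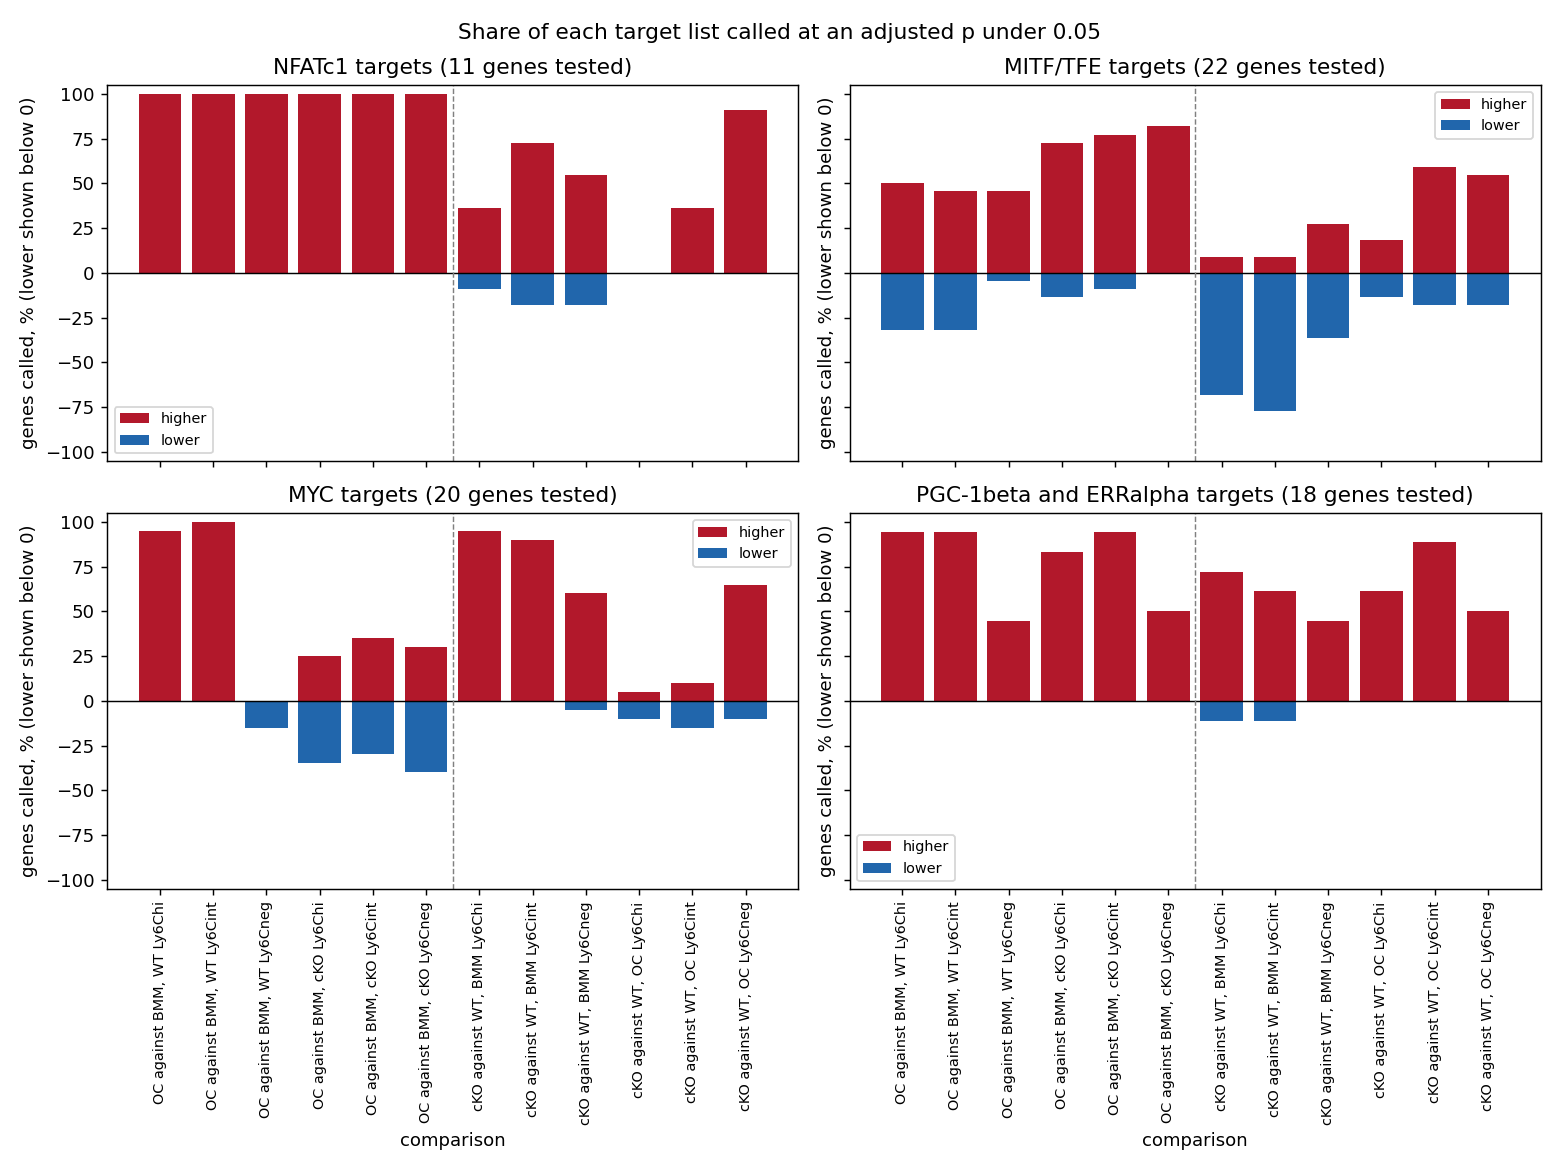
Share of each of 4 target lists called higher (red, above 0) or lower (blue, below 0) in 12 comparisons, stage left and genotype right of the dashed line. The NFATc1 targets rose for 11 of 11 genes in all 6 stage comparisons. The MYC targets rose for 19 and 20 of 20 genes in WT Ly6Chi and Ly6Cint cells and for 0 in WT Ly6Cneg cells.

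Between the Ly6Cneg and Ly6Chi fractions, Mitf, Tfeb and Tfe3 differed in 1 direction in WT day 0 cells and in the other in WT day 4 cultures; whether the subset difference itself depended on the stage was not tested. At day 0 in WT cells Mitf, Tfeb, Tfe3 and Esrra were all lower in Ly6Cneg cells, with differences of -0.59 (limma adjusted p = 5.23e-05), -0.51 (2.1e-05), -0.51 (6.65e-06) and -0.37 (0.000759). At day 4 in WT cultures Mitf (0.34, 0.027), Tfeb (0.39, 0.00105) and Tfe3 (0.48, 2.46e-05) were higher in Ly6Cneg, and Esrra was lower (-0.81, 5.18e-10). With median-of-ratios rescaling the first 3 became 0.16, 0.21 and 0.30 and were not called, and the Mitf call was also lost without Ly6Chi replicate 2 (0.32) or 3 (0.31) or Ly6Cneg replicate 1 (0.33) or 2 (0.35).

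In cKO-labelled day 0 cells none of these 4 genes was called between Ly6Cneg and Ly6Chi, with differences of 0.07, -0.18, -0.19 and -0.12 (adjusted p = 0.636, 0.0921, 0.0511 and 0.239). At day 4 in cKO-labelled cultures Mitf and Tfe3 were higher in Ly6Cneg than in Ly6Chi, by 1.11 ± 0.10 (1.61e-11) and 0.71 ± 0.07 (8.74e-10), and Esrra was lower (-0.42, 3.33e-05), whereas Tfeb at 0.19 was not called (0.0863). Myc was higher there as well, by 0.97 ± 0.09 (4.13e-11). Against Ly6Cint cultures the differences were 0.84 ± 0.10 for Mitf (9.71e-09), 0.64 ± 0.07 for Tfe3 (6.73e-09), 0.96 ± 0.09 for Myc (3.97e-11) and -0.69 for Esrra (1.09e-09). In WT cultures Ly6Cneg against Ly6Chi gave 0.98 for Nfatc2 (1.13e-05) and -0.62 for Myc (6.82e-06). In Ly6Cneg cultures Myc had the lowest of the WT and the highest of the cKO-labelled day 4 group means, with 1294 and 4177 mean reads at a common depth.

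The 9 genes differed in how far their group means ranged. Nfatc1 spanned 4.23, Ppargc1b 4.09 and Myc 3.51 units between the highest and the lowest of the 12 groups, whereas Mitf spanned 2.10, Nfatc2 1.75, Esrra 1.48, Tfe3 1.13, Nfatc3 1.07 and Tfeb 0.95. The scale is compressed for low genes, so these spans do not rank the genes by fold change in reads. Per kilobase of exon, the lowest and highest groups held 188.5 and 3724 reads for Nfatc1 and 35.8 and 1141 for Ppargc1b. For Myc they held 85.46 and 1537. Nfatc1, Ppargc1b and Esrra shared their highest group, the cKO-labelled Ly6Cint cultures, in which Nfatc2 was at its lowest. Myc and Mitf shared another, the cKO-labelled Ly6Cneg cultures. Nfatc2 and Tfeb were highest in WT Ly6Chi cells at day 0 and Tfe3 in WT Ly6Cint cells at day 0. Among the 11 neighbouring pairs of groups of each gene, libraries overlapped in 6 for Nfatc1, Tfe3, Myc, Ppargc1b and Esrra, 7 for Nfatc2, Mitf and Tfeb and 10 for Nfatc3.

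As a description over the 12 group means, which share libraries and normalization, Nfatc1 ran most closely with Ppargc1b (Pearson r = 0.98) and Esrra (0.92), and Tfeb with Tfe3 (0.85). Nfatc2 and Myc ran in opposite directions (r = -0.71). Among 10466 genes with a span of at least 1 unit, the genes most like Nfatc1 were Xpr1, a phosphate exporter (0.99), Firre (0.99) and Zfand5 (0.99). Those most like Ppargc1b included Vwa8 and Chchd10 (0.99 each). Those most like Myc were Srm (0.95), Nolc1 (0.94) and the threonine tRNA synthetase gene Tars (0.94), of which Srm and Nolc1 are listed MYC targets. For Esrra they were Slc16a7, Mfsd9 and Slc38a6 (0.98 each), for Mitf Akap11 (0.94), Luzp1 (0.93) and Ralgds (0.93), and for Tfe3 Cmklr1, Per1 and Fam114a1 (0.95 each). For Nfatc2 they were Calhm2 (0.97), Galnt10 (0.96) and Map1s (0.96), for Nfatc3 Cnot1 (0.98), Tbl1x (0.97) and Heatr5b (0.97), and for Tfeb Adamtsl4 (0.89), Cds2 (0.89) and Ifngr1 (0.88).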

How the data were processed

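RNA sequencing values came in 1 table that the authors deposited on a log2 scale, already normalised. Tools named in the submitters' processing notes, without roles, are HISAT2, DESeq2, deepTools, bcl2fastq 2.17.1 and CASAVA 1.8.4, on mm10. How counting, strand, annotation and the transform were handled is not given in the sources used here. Of 36 samples, 34 had a column and the other 2 were not analysed here.

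limma 3.58.1 (R 4.3.3) fitted 1 mean per group to the deposited log2 values, with a trended, robust prior and 22 residual degrees of freedom. Genes were tested if 3 or more libraries exceeded 4.78, the 5th percentile once values at the minimum were set aside, and p-values were adjusted within each of 29 comparisons. The plan had assumed linear values, and since the values were logarithmic no pseudocount was added. On simulated data for cKO-labelled against WT Ly6Chi cultures, over 38873 genes, 77 of 100 genes changed by 1 unit and 93 of 100 changed by 2 were called, with 12 false calls.

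Whole reads were recovered from the steps between values: 99.87% of steps lay within 0.25 of a whole read, and all 306 values of the 9 genes lay on a traced step. Genes above the traced range held 16.8% to 28.6% of reads. Identifiers were matched to GENCODE M21 for coordinates (38928 of 38942).

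Members and lists were chosen with earlier results of these data known. Named genes were the 9 members, up to 4 called genes of largest difference per list and comparison, and per member the 3 genes of highest correlation over group means. Levels of Ctsk, Ly6c2, Xist, Ddx3y and Nfatc4 are given as values, and 2 genes that this rule names are not reported here. Irf8 checked the genotype label. Alternatives were other filters, rescalings, priors, weights, libraries left out, and 2 chosen after seeing the data (voom on recovered reads, and rescaling on the 6447 genes with a mean of at least 10).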

Additional observations from a re-analysis of the deposited data

Results flagged for a closer look

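The change from day 0 to day 4 differed between genotypes for 23 of 27 gene and subset combinations, by limma's test of the interaction at an adjusted p under 0.05. Of all genes tested, 23.8%, 26% and 17.3% were called in Ly6Chi, Ly6Cint and Ly6Cneg cells. Each value here is the stage difference in cKO-labelled cells minus that in WT cells, in the order Ly6Chi, Ly6Cint, Ly6Cneg. For Nfatc1 the values were 0.9739, 1.4343 and 1.5441. For Mitf they were 0.9426, 1.1137 and 1.0492, for Tfe3 0.9052, 0.8343 and 0.8183, and for Esrra 0.4355, 1.116 and 0.5882. Nfatc2 differed in Ly6Chi (1.6342) and Ly6Cint cells (0.762), Nfatc3 in Ly6Cint (0.899) and Ly6Cneg cells (0.871), Tfeb in Ly6Chi (1.1474) and Ly6Cneg cells (0.6118), and Ppargc1b in Ly6Cint (1.2701) and Ly6Cneg cells (1.118). Myc differed downwards in Ly6Chi (-2.2982) and Ly6Cint cells (-2.8883) and upwards in Ly6Cneg cells (1.6175). The Nfatc3 call in Ly6Cneg cells was lost without replicate 2 of WT Ly6Cneg day 0 (0.84) or replicate 1 of WT Ly6Cneg day 4 (0.85).

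The difference between genotypes itself differed between the 3 subsets by F tests, for 6 genes at day 0 and 5 at day 4, where 20.8% and 13.4% of all genes were called. At day 0 the adjusted p was 1.49e-19 for Myc, 2.89e-05 for Mitf, 0.00969 for Esrra, 0.0169 for Tfeb, 0.0322 for Nfatc2 and 0.042 for Tfe3. At day 4 it was 3.72e-12 for Myc, 5.07e-05 for Mitf, 0.000561 for Nfatc2, 0.00166 for Esrra and 0.00424 for Tfeb.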

How the results depend on the processing

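No paired analysis was possible because the sample titles carry serial numbers that no 2 groups share. Of 150 called differences of the 9 genes, all 150 kept direction and call without a filter and with the stricter one. Under the other 7 alternatives 4 to 15 calls were lost each (135 to 146 kept). Calls gained were 19 with sample quality weights, 9 with median-of-ratios, 6 each with quantile normalization and voom, 5 each with rescaling on high genes and the compared libraries alone, 2 with the stricter filter and 0 with the other 2 alternatives. Calls between subsets at day 4 ranged from 25 to 39 around 32. Only median-of-ratios rescaling turned called differences, 3 of them, all of cKO-labelled day 4 against day 0: Tfeb in Ly6Cint cells to 0.0955, Tfe3 in Ly6Chi cells to 0.0747 and Myc in Ly6Chi cells to 0.0276. In that comparison the median over all genes was -0.27, -0.34 and -0.36 in Ly6Chi, Ly6Cint and Ly6Cneg cells as deposited and 0.01, 0.02 and -0.09 after the rescaling. The cause was not tested. The 24 stage calls in cKO-labelled cells split 20 higher and 4 lower, against 21 and 0 under median-of-ratios, 17 and 6 under rescaling on high genes and 18 and 5 under quantile normalization. Calls between subsets at day 4 split 17 and 15, against 10 and 15 under median-of-ratios. Leaving out 1 library at a time gave 17 to 21 genotype calls at day 0 and 12 to 15 at day 4. Tfeb led its family per kilobase in 4 groups by the union of exons and in 12 by the longest transcript. Depth limits Ppargc1b at day 0 most, with 84 to 417 reads in a library.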
